A study of Mus musculus with 16 samples.

Results

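Planar cell polarity is the alignment of cells, or of structures such as cilia, within the plane of a tissue. Its core proteins are the atypical cadherins of the Celsr family (the mouse homologues of Flamingo), the membrane proteins Vangl1 and Vangl2, the cytoplasmic Prickle proteins and the Dishevelled proteins (Dvl). Celsr, Vangl and Prickle assemble on one side of a cell junction, and Celsr, Frizzled and Dishevelled on the other. Dishevelled also works in the canonical Wnt pathway, where it holds back the APC and Axin complex that marks β-catenin for degradation. In brain, these genes are known for guiding axons and migrating neurons, for aligning the cilia of ependymal cells and for functions at synapses.

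The genes described here are Dvl1, Dvl2, Dvl3, Prickle1, Prickle2, Vangl1, Vangl2, Celsr1, Celsr2 and Celsr3. They are the 10 rows of the expression table with these symbols, out of 23284 genes, and were read in all 16 libraries. The libraries hold mRNA of the freshly dissected prefrontal cortex of mice that were 2–3 months old, of both sexes, and each of 4 genotypes had 4 libraries. APC cKO mice (APC fl/fl) lose exons 11 and 12 of Apc, whose protein is part of the β-catenin destruction complex. β-cat cOE mice (ctnnb1 fl(ex3)/+) lose exon 3 of 1 copy of Ctnnb1, which leaves a β-catenin that escapes degradation. APC/β-cat cKO mice (APC fl/fl/ctnnb1 fl/fl) lose the same part of Apc and exons 2 to 6 of Ctnnb1. All 3 mutants carry the same CamKIIα-Cre-93 driver, which acts mainly in excitatory neurons of the forebrain, so most other cells of the dissected tissue keep intact alleles. Controls were littermates without Cre, pooled from all lines. The 3 comparisons with control therefore share the same 4 control libraries. Libraries are numbered within a genotype in the order of their records.

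Values are FPKM, fragments per kilobase of transcript scaled to the mapped fragments of the library, so levels of different genes can be compared. The table gives no fragment counts, and the depth of each library is unknown. As a check of the genotypes, Apc was at 7.85 to 17.1 FPKM in the APC cKOs and 6.80 to 12.2 FPKM in the APC/β-cat cKOs, against 40.8 to 50.1 FPKM in controls. Ctnnb1 was at 150.9 to 157 FPKM in the APC/β-cat cKOs against 156 to 166 FPKM in controls, a log2 change of -0.05 (limma adjusted p = 0.643), so the level of the whole gene did not show this deletion against control. Between APC cKOs and APC/β-cat cKOs it differed by 0.14 (unadjusted p = 0.00832, limma adjusted p = 0.295). In β-cat cOEs the log2 changes of Ctnnb1 and Apc against control were -0.002 and 0.02, so these levels do not check that genotype. The 6 markers of excitatory neurons summed to between 1077 and 1389 FPKM in the 16 libraries. Genes listed at 0 numbered 5726 to 6649 per library, with the highest number in APC/β-cat cKO replicate 4. That library was the lowest of its genotype in 6 of the 10 genes, and for some of these genes the change without it is also given. Other values given once can also move without it. Values of pathway and marker genes are given only with all 16 libraries. By Xist, 2 libraries were from females, replicate 1 of the controls and replicate 1 of the APC cKOs. The sources used here do not spell out which mouse each of the 4 libraries of a genotype came from, so the p-values measure the spread between libraries. In whole tissue, fewer cells of a type and less RNA per cell cannot be told apart.

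All 10 genes were above 0 in all 16 libraries and passed the filter for testing, a mean of at least 0.5 FPKM. Their levels in controls differed by more than 50 times. The highest was Prickle2 at 35.4 ± 1.87 FPKM (SD, n = 4), above 81.2% of the genes tested. Prickle1 followed at 27.6 ± 1.61 FPKM, Dvl1 at 25.6 ± 2.44 FPKM and Celsr2 at 20.4 ± 2.63 FPKM. The middle of the order held Dvl3 at 10.6 ± 0.393 FPKM, Celsr3 at 5.32 ± 0.478 FPKM and Dvl2 at 4.04 ± 0.543 FPKM. Vangl2 was at 2.39 ± 0.239 FPKM, Vangl1 at 0.782 ± 0.0689 FPKM and Celsr1 at 0.659 ± 0.146 FPKM. Celsr1 lay above only 3.63% of the genes tested and Vangl1 above 5.54%. Among neighbours in this order, the control libraries of Prickle1 and Dvl1 overlapped, as did those of Dvl1 and Celsr2 and those of Vangl1 and Celsr1. The other neighbours did not overlap in controls. Each of the 4 families thus had 1 member that made up most of its summed level: Dvl1, Prickle2, Vangl2 and Celsr2.

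**Figure D1:**
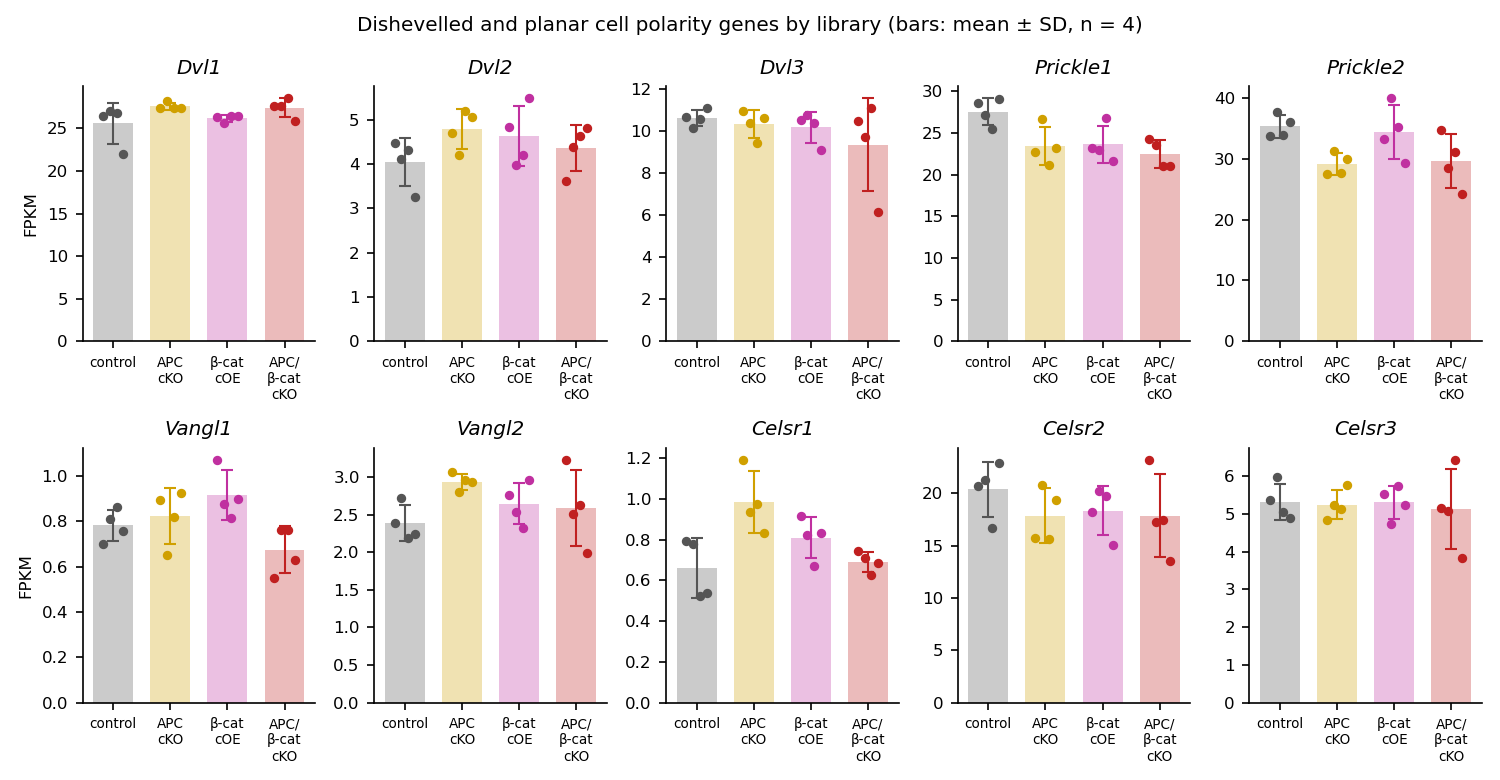
FPKM of the 10 genes by genotype, on axes that start at 0. Points are libraries, bars the mean and error bars the SD of 4 libraries. Prickle1 in the APC/β-cat cKOs (21.02 to 24.32 FPKM) and Prickle2 in the APC cKOs (27.6 to 31.4 FPKM) lie below all control libraries, and Celsr1 in the APC cKOs (0.831 to 1.19 FPKM) lies above them.

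No gene of the 10 passed an adjusted p of 0.05 in limma in any comparison. In APC cKOs against control, 0 of 10 passed, where 0.0429% of all 13978 genes tested did. At an unadjusted p under 0.05, 4 of 10 were counted in this comparison, beside 10% of all genes. In β-cat cOEs against control the count was 0 of 10 adjusted, beside 0.0143% of all genes, and 1 of 10 unadjusted, beside 5.07%. In APC/β-cat cKOs against control it was 0 of 10 adjusted, beside 0.207%, and 2 of 10 unadjusted, beside 14.2%. The test of any difference among the 4 genotypes counted 0 of 10 adjusted, beside 0.25%, and 3 of 10 unadjusted, beside 12%. The median log2 change over the 10 genes was 0.02 in the APC cKOs, 0.02 in the β-cat cOEs and -0.13 in the APC/β-cat cKOs, where the median of all genes was -0.004, -0.004 and 0.003. Without APC/β-cat cKO replicate 4, the median over the 10 genes was 0.015 in the APC/β-cat cKOs, with 5 of 10 changes positive. Of the 10 genes, Prickle1 alone passed the unadjusted threshold in all 3 comparisons with control. The share of all genes that did so was not counted. These comparisons share the same 4 controls, so they are not 3 independent results. The controls lack Cre, so a change common to all 3 mutants cannot be told apart from one that comes with Cre.

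**Figure D2:**
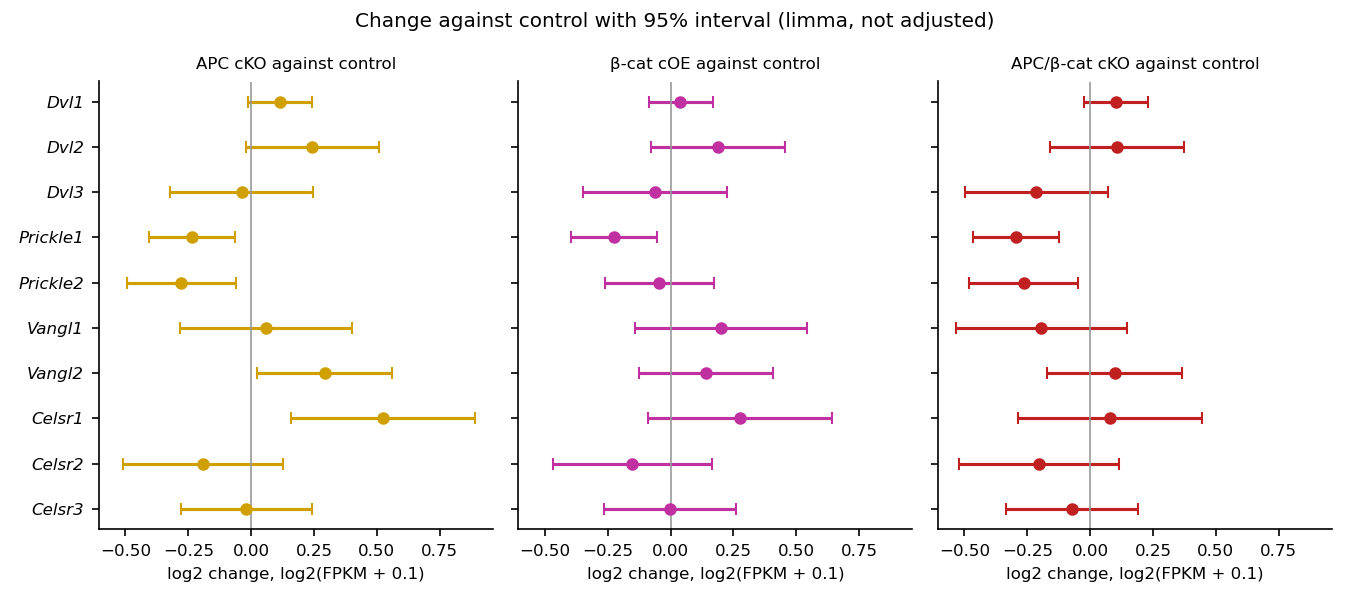
Log2 change of each gene against control on the log2(FPKM + 0.1) scale, with 1 panel per mutant. Points are limma estimates and bars their 95% intervals without adjustment for multiple tests. The interval of Prickle1 lies below 0 in all 3 panels (its estimates are -0.24, -0.22 and -0.29), and the interval of Celsr1 lies above 0 in the APC cKOs, from 0.16 to 0.89.

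Prickle1 and Prickle2 encode LIM-domain proteins that bind Vangl, and variants of both genes have been linked to epilepsy. Prickle1 is on the minus strand of chromosome 15, at chr15:93499114-93595891 (mm10, GENCODE), and its longest coding transcript has 8 exons. Prickle2 is on the minus strand of chromosome 6, at chr6:92370908-92706155, with 9 exons in its longest coding transcript. Of the windows of 250 bases before an annotated start, RefSeq on build GRCm38.p6 listed 12 for 8 of the 10 genes. They were searched on both strands for CTTTGAT and CTTTGAA, motifs of the TCF/LEF factors to which β-catenin binds. In these 12 windows there was 1 match, beside 7.48% of all 32851 windows and 5.05% of the 12753 windows of genes tested. The match lay 164 bases before an internal start of Prickle2. Shown 5′ to 3′ are this window, with the motif in capitals, and for comparison the windows before the outermost starts of both genes, which held no match and were richer in G and C (70% and 74% against 46.4%).

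Prickle2, internal start, minus strand, chr6:92567367-92567616: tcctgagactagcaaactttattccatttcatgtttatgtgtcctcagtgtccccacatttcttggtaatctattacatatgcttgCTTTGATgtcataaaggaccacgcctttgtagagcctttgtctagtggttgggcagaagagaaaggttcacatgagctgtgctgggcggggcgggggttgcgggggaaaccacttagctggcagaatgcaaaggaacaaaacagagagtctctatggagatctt
Prickle2, outermost start, minus strand, chr6:92706185-92706434: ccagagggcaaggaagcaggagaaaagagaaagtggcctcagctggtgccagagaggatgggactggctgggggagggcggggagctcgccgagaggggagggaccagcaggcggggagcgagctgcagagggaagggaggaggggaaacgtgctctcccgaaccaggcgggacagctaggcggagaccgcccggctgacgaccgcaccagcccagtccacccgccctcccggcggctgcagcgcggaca
Prickle1, outermost start, minus strand, chr15:93595903-93596152: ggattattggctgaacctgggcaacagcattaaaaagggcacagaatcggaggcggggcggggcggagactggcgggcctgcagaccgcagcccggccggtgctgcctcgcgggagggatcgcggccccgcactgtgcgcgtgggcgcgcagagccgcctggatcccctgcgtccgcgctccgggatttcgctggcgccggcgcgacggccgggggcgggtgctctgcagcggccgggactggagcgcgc

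Prickle1 was at 28.6, 27.1, 25.5 and 29.1 FPKM in the 4 controls. It was at 22.8, 26.6, 21.2 and 23.2 FPKM in the APC cKOs, at 23.1, 22.9, 26.8 and 21.6 FPKM in the β-cat cOEs, and at 24.32, 23.52, 21.02 and 21.08 FPKM in the APC/β-cat cKOs. The 10 lowest of the 16 values came from mutants, and 1 library each of APC cKO and β-cat cOE reached into the control range. The log2 change was -0.24 in the APC cKOs (standard error 0.08, unadjusted p = 0.00984, limma adjusted p = 0.35), which is 15.1% below control. It was -0.22 in the β-cat cOEs (standard error 0.08, unadjusted p = 0.0137, limma adjusted p = 0.946). It was -0.29 in the APC/β-cat cKOs (standard error 0.08, unadjusted p = 0.00227, limma adjusted p = 0.191), where none of the 4 libraries overlapped control. These changes did not differ detectably between mutants, with log2 differences of -0.01 between APC cKO and β-cat cOE (95% interval -0.18 to 0.16) and 0.06 between APC cKO and APC/β-cat cKO (95% interval -0.11 to 0.23). Without β-cat cOE replicate 4 the unadjusted p in the β-cat cOEs was 0.0501.

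Prickle2 was at 33.9, 37.7, 33.9 and 36.1 FPKM in controls and at 27.59, 31.36, 27.68 and 30.01 FPKM in the APC cKOs, so that all APC cKO libraries lay below all controls. It was at 33.3, 40.0, 35.2 and 29.4 FPKM in the β-cat cOEs, which spanned the control range on both sides. In APC/β-cat cKOs it was at 34.8, 28.5, 31.1 and 24.2 FPKM, with 1 library inside the control range. The log2 change was -0.28 in the APC cKOs (standard error 0.10, unadjusted p = 0.0149, limma adjusted p = 0.383) and -0.27 in the APC/β-cat cKOs (unadjusted p = 0.0196, limma adjusted p = 0.289). In β-cat cOEs it was -0.04 (95% interval -0.26 to 0.17). Between mutants, Prickle2 differed by -0.23 from the β-cat cOEs to the APC cKOs (unadjusted p = 0.0359, limma adjusted p = 0.608) and by 0.22 from the APC/β-cat cKOs to the β-cat cOEs (unadjusted p = 0.0466, limma adjusted p = 0.413). Leaving out APC/β-cat cKO replicate 4 changed its log2 change against control to -0.17 (unadjusted p = 0.0857) and its difference from β-cat cOEs to 0.13 (unadjusted p = 0.193). The latter difference was at an unadjusted p above 0.05 in most alternatives, and it was 0.15 without β-cat cOE replicate 2 (unadjusted p = 0.173). The difference between APC cKOs and β-cat cOEs was -0.16 without that library (unadjusted p = 0.138) and -0.21 with sex as a covariate (unadjusted p = 0.0692), and its unadjusted p was 0.0714 without β-cat cOE replicate 3, 0.0834 without APC cKO replicate 1 and 0.0826 without APC cKO replicate 3. Without control replicate 2 the unadjusted p in the APC/β-cat cKOs was 0.0544.

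Celsr1 is the family member best known in progenitors and epithelia. It is on the minus strand of chromosome 15 at chr15:85898929-86033777, 7.47 Mb from Prickle1, and its longest coding transcript has 35 exons. It was at 0.792, 0.780, 0.525 and 0.540 FPKM in controls and at 1.19, 0.937, 0.974 and 0.831 FPKM in the APC cKOs, where all libraries lay above all controls. In β-cat cOEs it was at 0.915, 0.823, 0.671 and 0.831 FPKM, and in the APC/β-cat cKOs at 0.744, 0.709, 0.626 and 0.688 FPKM. Both of these groups overlapped control. The log2 change in the APC cKOs was 0.52 (standard error 0.17, 95% interval 0.16 to 0.89, unadjusted p = 0.00812, limma adjusted p = 0.337). It was 0.28 in the β-cat cOEs (95% interval -0.09 to 0.64) and 0.08 in the APC/β-cat cKOs (95% interval -0.29 to 0.45). The difference between APC cKOs and the APC/β-cat cKOs was 0.44 (unadjusted p = 0.0206, limma adjusted p = 0.389), but it was 0.36 without APC cKO replicate 1 (unadjusted p = 0.0743) and 0.40 without APC/β-cat cKO replicate 3 (unadjusted p = 0.0517). The gene is so low that the choice of the added constant counts: with 1 FPKM added in place of 0.1, the log2 change in the APC cKOs was 0.26 (unadjusted p = 0.00671).

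Vangl2 encodes a membrane protein that recruits Prickle and is needed for closure of the neural tube. It was at 2.38, 2.72, 2.19 and 2.25 FPKM in controls and at 3.06, 2.80, 2.96 and 2.93 FPKM in the APC cKOs, again with all libraries above all controls. It was at 2.76, 2.54, 2.32 and 2.95 FPKM in the β-cat cOEs and at 3.23, 2.50, 2.63 and 1.99 FPKM in the APC/β-cat cKOs. The last group held both the highest and the lowest value of the 16 libraries. The log2 change was 0.29 in the APC cKOs (standard error 0.13, unadjusted p = 0.0344, limma adjusted p = 0.452), 0.14 in the β-cat cOEs (95% interval -0.13 to 0.41) and 0.10 in the APC/β-cat cKOs (95% interval -0.17 to 0.37), where it was 0.21 without replicate 4. In 7 of 26 alternative fits the unadjusted p in the APC cKOs was above 0.05. It was 0.0978 with the number in the sample title as a block, and 0.0548 to 0.0863 without replicate 1, 3 or 4 of either genotype. Its homologue Vangl1 was at 0.701, 0.809, 0.862 and 0.756 FPKM in controls, at 0.894, 0.651, 0.820 and 0.925 FPKM in the APC cKOs, at 1.07, 0.875, 0.815 and 0.897 FPKM in the β-cat cOEs and at 0.550, 0.760, 0.761 and 0.628 FPKM in the APC/β-cat cKOs. Vangl1 overlapped control in all 3 mutants, with unadjusted p from 0.233 to 0.723. The β-cat cOE libraries were higher than those of the APC/β-cat cKOs by 0.39 on the log2 scale (standard error 0.16, unadjusted p = 0.0267, limma adjusted p = 0.358). This unadjusted p was 0.0542 with the number in the sample title as a block. It was 0.0843, 0.0869 and 0.0538 without β-cat cOE replicate 1, APC/β-cat cKO replicate 1 and APC/β-cat cKO replicate 4.

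Markers of other cell types were also high in some of these libraries. The 5 ependymal markers summed to 5.91, 6.78, 5.04 and 4.07 FPKM in controls and to 20.1, 4.36, 35.4 and 11.6 FPKM in the APC cKOs, and all 5 had a positive log2 change in the APC cKOs (median 1.46), with 0 of 5 past an adjusted p of 0.05. The sum was also high in β-cat cOE replicate 4 (23.48 FPKM) and APC/β-cat cKO replicate 2 (21.04 FPKM), where Celsr1 was at 0.831 and 0.709 FPKM and Vangl2 at 2.95 and 2.50 FPKM. In control replicate 3, APC cKO replicate 2, β-cat cOE replicate 3 and APC/β-cat cKO replicates 1 and 3, Tmem212, one of these markers, was listed at 0. The 7 markers of neuroblasts and progenitors summed to 17.8 to 39.3 FPKM in controls and 22.1 to 84.7 FPKM in the APC cKOs. The highest sum, in APC cKO replicate 1, came with the highest level of Celsr1. The next highest sums were 54.65 FPKM in β-cat cOE replicate 1 and 51.88 FPKM in APC/β-cat cKO replicate 2. There Celsr1 was at 0.9155 and 0.7088 FPKM, the latter within the control range. The 5 astrocyte markers summed to 337 to 364 FPKM in controls and 361 to 512 FPKM in the APC cKOs, and the 5 oligodendrocyte markers to 660 to 1024 FPKM and 575 to 689 FPKM. Markers of striatal neurons, which mark tissue next to the cortex, summed to 64.1 to 268 FPKM in controls and 70.2 to 356 FPKM in the APC cKOs. In all, 58 markers of 12 cell types were tested, and 0 passed an adjusted p of 0.05 in limma in any comparison with control. At an unadjusted p under 0.05 in the APC cKOs, 1 of 5 ependymal, 4 of 7 neuroblast and progenitor, 2 of 5 astrocyte and 2 of 5 meningeal fibroblast markers were counted as higher, beside 10% of all genes in either direction. Counted as lower were 4 of 5 oligodendrocyte, 2 of 4 endothelial, 1 of 6 excitatory neuron and 1 of 6 inhibitory neuron markers, and the other 4 lists had none in either direction. In APC cKO replicate 2 the ependymal and the neuroblast sums were 4.36 and 22.1 FPKM, Celsr1 was at 0.937 FPKM and Vangl2 at 2.80 FPKM. Without APC cKO replicate 1, the log2 change of Celsr1 was 0.44 (unadjusted p = 0.0335). The part of these cells in the levels of Celsr1 and Vangl2 was not tested.

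Dvl1 was at 26.5, 27.1, 26.8 and 21.9 FPKM in controls, at 27.4, 28.2, 27.4 and 27.4 FPKM in the APC cKOs, at 26.3, 25.6, 26.5 and 26.4 FPKM in the β-cat cOEs and at 27.6, 27.7, 28.6 and 25.9 FPKM in the APC/β-cat cKOs. It varied least of the 10 genes, with a coefficient of variation of 5.64% over the 16 libraries. All APC cKO values lay above all controls, and the log2 change was 0.11 (95% interval -0.01 to 0.24, unadjusted p = 0.075). Control replicate 4 was apart from the other controls, and without it the log2 change in the APC cKOs was 0.04. Dvl2 was at 4.48, 4.12, 4.31 and 3.26 FPKM in controls, 4.71, 4.19, 5.19 and 5.06 FPKM in the APC cKOs, 4.85, 3.981, 4.199 and 5.487 FPKM in the β-cat cOEs and 3.63, 4.38, 4.62 and 4.80 FPKM in the APC/β-cat cKOs. By the fitted changes it was above control in all 3 mutants, by 18.4%, 14% and 7.73%, with overlapping libraries and unadjusted p of 0.0697, 0.151 and 0.404. Dvl3 was at 10.7, 10.1, 10.5 and 11.1 FPKM in controls, 10.9, 10.4, 9.41 and 10.6 FPKM in the APC cKOs, and 10.5, 10.7, 10.3 and 9.07 FPKM in the β-cat cOEs. Values for the APC/β-cat cKOs were 10.4, 9.68, 11.1 and 6.15 FPKM, the last of them in replicate 4. The log2 change of Dvl3 in the APC/β-cat cKOs was -0.21 (95% interval -0.50 to 0.07, unadjusted p = 0.13) and -0.03 without that library, and -0.31 without replicate 3 (unadjusted p = 0.0385). The 3 genes overlap in function, and the summed Dvl level was 40.2 ± 2.64 FPKM in controls, 42.7 ± 0.488 FPKM in the APC cKOs, 41.0 ± 0.552 FPKM in the β-cat cOEs and 41.1 ± 3.10 FPKM in the APC/β-cat cKOs (SD, n = 4 each).

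Celsr2 and Celsr3 are the neuronal members of the cadherin family, known for dendrite growth and for axon tracts of the forebrain. Celsr2 was at 20.7, 21.3, 16.7 and 22.9 FPKM in controls, 15.7, 20.8, 15.6 and 19.4 FPKM in the APC cKOs, 18.2, 20.2, 19.8 and 15.1 FPKM in the β-cat cOEs and 23.2, 17.3, 17.5 and 13.6 FPKM in the APC/β-cat cKOs. The fitted changes, which average the libraries on the log2 scale, put it below control by 12.4%, 10.1% and 13.2%, the libraries overlapped in each case, and the unadjusted p was 0.22, 0.321 and 0.19. In the APC/β-cat cKOs the log2 change was -0.20 with all libraries, -0.08 without replicate 4 (unadjusted p = 0.58) and -0.34 without replicate 1 (unadjusted p = 0.0278). Celsr3 was at 5.38, 5.97, 5.05 and 4.89 FPKM in controls, 4.82, 5.24, 5.14 and 5.78 FPKM in the APC cKOs, 5.53, 4.74, 5.75 and 5.24 FPKM in the β-cat cOEs and 5.15, 5.09, 6.43 and 3.84 FPKM in the APC/β-cat cKOs. It was the gene with the smallest differences between genotypes, with log2 changes of -0.02 (95% interval -0.28 to 0.24), -0.002 (95% interval -0.26 to 0.26) and -0.07 (95% interval -0.33 to 0.19), the last being 0.06 without replicate 4. Among all 16 libraries, APC/β-cat cKO replicate 4 had the lowest level of Celsr2, Celsr3, Dvl3, Prickle2 and Vangl2.

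Libraries that did not overlap control were thus counted for 4 of 10 genes in the APC cKOs (Celsr1, Vangl2 and Dvl1 higher, Prickle2 lower), beside 5.47% of all genes tested. The count was 0 of 10 in the β-cat cOEs, beside 3.08%, and 1 of 10 in the APC/β-cat cKOs, beside 5.21%. Between mutants, 0 of 10 genes passed an adjusted p of 0.05 in limma in any pair, beside 0.215% of all genes for APC cKO against APC/β-cat cKO, 0.229% for β-cat cOE against APC/β-cat cKO and 0.0429% for APC cKO against β-cat cOE. At an unadjusted p under 0.05 these pairs counted 1 of 10, beside 10.3%, 2 of 10, beside 11.9%, and 1 of 10, beside 7.57%. Libraries of 2 mutants did not overlap for Celsr1, higher in APC cKOs than in APC/β-cat cKOs. The same held for Vangl1, higher in β-cat cOEs than in APC/β-cat cKOs, and Dvl1, higher in APC cKOs than in β-cat cOEs. The share of all genes without overlap was not counted for pairs of mutants.

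The share of each gene in its family's summed FPKM was compared with exact two-sided permutation tests, 24 in all, whose smallest possible p is 0.0286. Celsr1 took 2.50% ± 0.464 of the Celsr sum in controls and 4.16% ± 1.04 in the APC cKOs (SD, n = 4 each, exact permutation p = 0.0286, 0.381 after adjustment over the 24 tests). The shares of the APC cKOs, 5.488%, 3.478%, 4.481% and 3.195%, were all above the highest control share of 2.94%. Celsr2 took 77.2% ± 2.56 of the sum in controls and 71.9% to 77.1% in the APC cKOs. Dvl1 took 63.5% ± 2.16 of the Dvl sum in controls and 66.8% ± 2.44 in the APC/β-cat cKOs (exact permutation p = 0.0571, 0.381 after adjustment), and 65.7% ± 1.03 in the 3 of these libraries other than replicate 4 (exact permutation p = 0.143). Prickle1 took 43.8% ± 1.73 of the summed level of both Prickle genes in controls, and its share in the mutants was between 40.8% and 44.5% on average, and both genes had lower means than control in the APC cKOs and the APC/β-cat cKOs. The exact permutation p of the other 22 shares was 0.0857 or higher.

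The other genes of the pathway were read from 5 lists with 56 genes, of which 50 passed the filter. Of these 50, 0 passed an adjusted p of 0.05 in limma in any comparison with control. At an unadjusted p under 0.05, 6 were higher and 3 lower in the APC cKOs, 2 higher and 2 lower in the β-cat cOEs, and 1 higher and 2 lower in the APC/β-cat cKOs. These are 9, 4 and 3 of 50 genes, beside 10%, 5.07% and 14.2% of all genes tested. Their median log2 change was 0.01, -0.01 and -0.01 in the 3 mutants. The ligands, receptors and co-receptors had the highest median in the APC cKOs, 0.19 over 9 genes, of which 3 were counted as higher at the unadjusted threshold and 0 as lower.

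Fzd6, a Frizzled receptor known for the orientation of hair follicles, was at 1.29 ± 0.449 FPKM in controls, 1.95 ± 0.265 FPKM in the APC cKOs, 1.75 ± 0.490 FPKM in the β-cat cOEs and 1.87 ± 0.181 FPKM in the APC/β-cat cKOs (SD over 4 libraries). Its log2 change was 0.60 in the APC cKOs (standard error 0.21, unadjusted p = 0.0117, limma adjusted p = 0.367), 0.42 in the β-cat cOEs (unadjusted p = 0.0622) and 0.55 in the APC/β-cat cKOs (unadjusted p = 0.0201, limma adjusted p = 0.289). Ptk7, a pseudokinase co-receptor, had a log2 change of 0.34 in the APC cKOs (unadjusted p = 0.0374), and the glypican Gpc4 one of 0.28 in the β-cat cOEs (unadjusted p = 0.0333). Among core-complex partners, Magi2, a scaffold of synapses, was at 24.1 ± 1.10 FPKM in controls and 19.5 ± 3.77 FPKM in the APC/β-cat cKOs (log2 change -0.32, unadjusted p = 0.0117, limma adjusted p = 0.278). Invs, a gene of left-right asymmetry whose product binds Dishevelled, had a log2 change of -0.24 in the β-cat cOEs (unadjusted p = 0.044). Among 14 Dishevelled partners and regulators, Cxxc5, an inhibitor that binds Dishevelled, was the only one counted against control, with a log2 change of -0.17 in the β-cat cOEs (unadjusted p = 0.0464).

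The effectors downstream of Dishevelled are the formins Daam1 and Daam2, small GTPases with their kinases, and the JNK kinases. Mapk9, which encodes JNK2, had a log2 change of -0.21 in the APC cKOs (69.3 ± 1.85 FPKM in controls, 60.0 ± 4.85 FPKM in the APC cKOs, unadjusted p = 0.0109, limma adjusted p = 0.362). Daam2 had one of -0.20 in the APC cKOs (unadjusted p = 0.0379) and Daam1 one of -0.20 in the APC/β-cat cKOs (unadjusted p = 0.0292). In the Fat and Dachsous system, a parallel polarity pathway, the cadherin Dchs1 was at 1.14 ± 0.0919 FPKM in controls and 1.68 ± 0.356 FPKM in the APC cKOs (log2 change 0.50, unadjusted p = 0.0105, limma adjusted p = 0.358). Fjx1, the homologue of the Four-jointed kinase, was at 29.4 ± 0.830 FPKM in controls, 33.6 ± 2.37 FPKM in the APC cKOs and 35.7 ± 3.27 FPKM in the β-cat cOEs. Its log2 change was 0.19 in the APC cKOs (unadjusted p = 0.0164, limma adjusted p = 0.386) and 0.28 in the β-cat cOEs (unadjusted p = 0.00146, limma adjusted p = 0.946). Fjx1 had the lowest unadjusted p of the 50 genes in any of these comparisons.

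**Figure D3:**
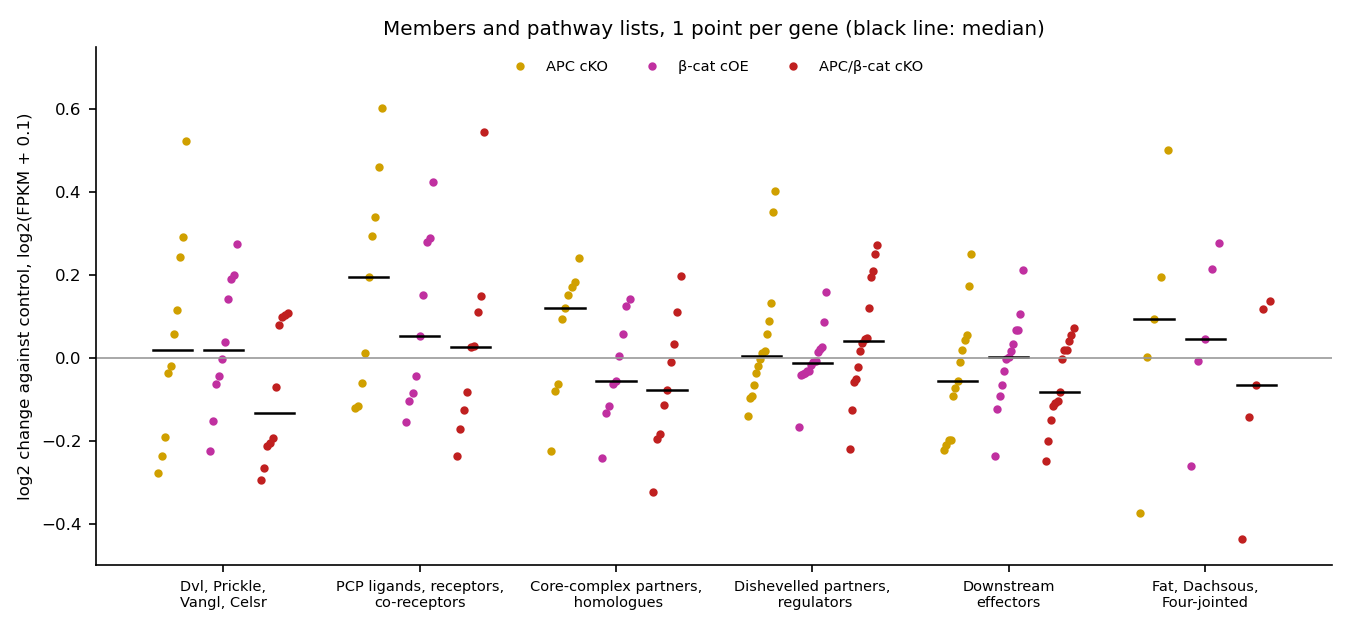
Log2 change against control of the 10 genes and of the genes tested in 5 pathway lists, on the log2(FPKM + 0.1) scale, with 1 point per gene and 1 colour per mutant. Black lines are medians, which lie between -0.13 and 0.19. Of the 60 genes plotted, none passed an adjusted p of 0.05.

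Some of the 10 genes varied together between libraries of the same genotype. After each genotype's mean was subtracted on the log2 scale, 45 pairs were compared over 16 libraries, with permutations within genotypes. Prickle2 and Celsr2 had the highest correlation (r = 0.88, permutation p = 0.0112 after adjustment over the 45 pairs; rho = 0.85, adjusted p = 0.0385; r = 0.78 without the 2 farthest libraries). Prickle1 and Celsr2 also varied together (r = 0.75, adjusted permutation p = 0.0328; rho = 0.77, adjusted p = 0.0385; r = 0.77 without the 2 farthest). Dvl2 varied in the opposite direction to Celsr2 (r = -0.77, adjusted permutation p = 0.036; rho = -0.77, adjusted p = 0.0385; r = -0.69 without the 2 farthest) and to Prickle2 (r = -0.73, adjusted permutation p = 0.0385; rho = -0.69, adjusted p = 0.0728; r = -0.75 without the 2 farthest). For Vangl2 and Celsr1, rho was 0.71 (adjusted permutation p = 0.0426) and r was 0.48 (adjusted p = 0.118), with r = 0.68 without the 2 farthest libraries. No other pair passed 0.05 after adjustment by either measure.

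Part of this variation moved with a property of the whole library. In each library, the median log2 level of 715 genes with transcripts over 8000 nucleotides was compared with that of 2328 genes under 2000 nucleotides, each gene centred over the 16 libraries. Celsr2 and Celsr3 are among the long genes. The difference of long and short transcripts was 0.19, 0.09, -0.04 and 0.26 in controls, -0.05, 0.11, -0.09 and 0.03 in the APC cKOs, 0.04, 0.07, 0.12 and -0.06 in the β-cat cOEs and 0.15, -0.29, 0.02 and -0.56 in the APC/β-cat cKOs. Within genotypes it went with the level of Celsr2 (r = 0.86, permutation p = 0.0001 after adjustment over 10 genes, from the smallest p these permutations can give; rho = 0.83, adjusted p = 0.0006; r = 0.73 without the 2 farthest libraries) and of Prickle2 (r = 0.80, adjusted permutation p = 0.00935; rho = 0.71, adjusted p = 0.0475; r = 0.56 without the 2 farthest). It went with Dvl3 by r only (r = 0.82, adjusted permutation p = 0.0182; rho = 0.56, adjusted p = 0.0768; r = 0.58 without the 2 farthest) and in the opposite direction with Dvl2 (r = -0.60, adjusted permutation p = 0.0332; rho = -0.56, adjusted p = 0.104; r = -0.47 without the 2 farthest). For Prickle1 it was r = 0.54 (adjusted permutation p = 0.0643) and rho = 0.59 (adjusted p = 0.0768), with r = 0.47 without the 2 farthest. For the other 5 genes the adjusted permutation p was 0.224 or higher by both measures, with r between -0.31 (Vangl1) and 0.60 (Celsr3). The longest transcripts of the 10 genes run from 3983 nucleotides (Dvl3) to 11571 nucleotides (Celsr3), and Celsr1, at 10879 nucleotides, had r = -0.06.

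**Figure D4:**
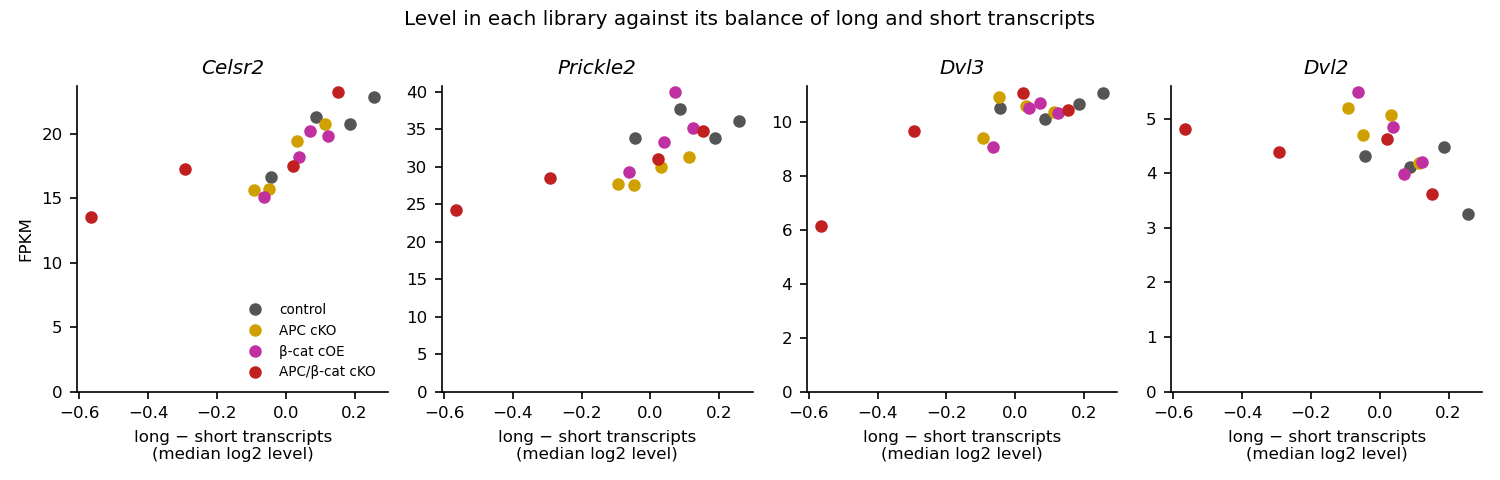
FPKM of Celsr2, Prickle2, Dvl3 and Dvl2 in each of the 16 libraries against that library's median log2 level of long (over 8000 nucleotides) less short (under 2000 nucleotides) transcripts. Points are libraries, coloured by genotype. Celsr2 and Prickle2 tend to be low and Dvl2 high where this difference is low, and the library farthest to the left, at -0.56, is APC/β-cat cKO replicate 4.

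With this difference as a covariate, an alternative chosen after the data were seen, the log2 change of Prickle1 against control was -0.20 in the APC cKOs (unadjusted p = 0.0177), -0.20 in the β-cat cOEs (unadjusted p = 0.0153) and -0.19 in the APC/β-cat cKOs (unadjusted p = 0.0379). That of Prickle2 was -0.20 in the APC cKOs (unadjusted p = 0.0127) and -0.07 in the APC/β-cat cKOs (unadjusted p = 0.411). The covariate itself tended to be lower in all 3 mutants than in controls. It was lowest in APC/β-cat cKO replicates 2 and 4 (-0.29 and -0.56), while replicates 1 and 3 of that genotype lay within the control range. This fit therefore cannot fully tell the covariate and the genotype apart, least of all for Prickle2 in the APC/β-cat cKOs. Celsr1 and Vangl2 in the APC cKOs had log2 changes of 0.52 (unadjusted p = 0.0126) and 0.35 (unadjusted p = 0.00836) in this fit. What sets the difference between libraries was not tested.

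The most similar patterns were searched among the 12900 genes whose mean reached 1 FPKM, by Pearson's r over the 16 libraries after each genotype's mean was subtracted. They are given as descriptions, the highest of many values, and the libraries and the length difference above are shared by all of them. For Celsr2 they were Mtap1a (r = 0.97) and Spna2 (r = 0.97), for Prickle2 Rabgap1 (r = 0.96) and Tecpr2 (r = 0.93), and for Prickle1 Stac2 (r = 0.92) and 2900026A02Rik (r = 0.88). For Dvl1 they were Tmem161a (r = 0.88) and Alyref (r = 0.87), for Dvl2 Ankrd13b (r = 0.89) and Dbn1 (r = 0.88), and for Dvl3 Tgoln2 (r = 0.95) and Nipbl (r = 0.93). For Vangl1 they were 2310040G24Rik (r = 0.93) and Zfp689 (r = 0.89), for Vangl2 Gpam (r = 0.90) and Galc (r = 0.87), for Celsr1 Kremen1 (r = 0.83) and Fermt3 (r = 0.83), and for Celsr3 BC018507 (r = 0.91). None of these genes was another Dishevelled or planar cell polarity gene of the 10.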

How the data were processed

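The authors extracted RNA from prefrontal cortex, prepared libraries with the TruSeq stranded mRNA kit and sequenced them as paired ends on an Illumina HiSeq instrument. Per the labels, reads were mapped to mm10 with TopHat2 2.0.10, and Cuffdiff 2.1.1 was used. The deposited values were made by the authors with Cufflinks2 and are on a log2 scale, read here as log2(FPKM + 1). Base and offset were inferred: FPKM times transcript length in kilobases then summed to 1254523 to 1330678 per library, against over 11022537 for natural logs. The table holds no fragment counts, so precision rests on the spread between libraries.

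Values were returned to FPKM and tested as log2(FPKM + 0.1), a scale that understates changes of low genes. limma 3.58.1 (R 4.3.3, eBayes with a trend) was fitted to all 16 libraries without covariates, on the 13978 genes whose mean reached 0.5 FPKM, with 12 residual degrees of freedom and Benjamini-Hochberg adjustment over all of them. The fit was tested on simulated data. Family shares used exact permutation tests. Tables and plots were made in Python 3.11.15 with matplotlib 3.10.9, pandas 2.3.3 and numpy 2.4.6. Annotation was GENCODE M21, and windows before gene starts came from RefSeq.

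The genes, the 5 pathway lists and the marker lists were chosen with earlier results of these data known. From each pathway list, up to 2 genes per comparison with control were named, those with the smallest unadjusted p under 0.05. For likeness, 2 genes per gene were named, of which 1 is not reported here. Alternatives were another added constant, no filter or a minimum mean of 2 FPKM, quantile scaling, no trend, sex or the difference of long and short transcripts as a covariate, the number in the sample title or the order of columns as a block, only the 2 groups compared, and each library left out. Title number 5 belongs only to APC cKO replicate 4, so the title-number block takes that library out of the comparisons. The covariate of long and short transcripts, the block by column order, and the medians and Dvl1 share without single libraries were chosen after the data were seen. The labels do not say what the numbers in the sample titles mark, and the main fit did not pair libraries by them. Deviations of same-numbered libraries had a median correlation of -0.069, with 4 of 21 pairs above 0.1 and a highest value of 0.32. Such correlations cannot show whether the numbers mark litters or days.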

Additional observations from a re-analysis of the deposited data

Results flagged for a closer look

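In each genotype, the highest or lowest library of each gene was compared with the other 3 by its gap as a share of the genotype's range (Dixon's test at the 95% level). Of 40 such groups, 2 were past the critical value, and chance gives 2.0. Both were Dvl1: control replicate 4 was at 21.9 FPKM against 26.5 to 27.1 FPKM in the other controls (ratio 0.889), and APC cKO replicate 2 was at 28.2 FPKM against 27.39 to 27.43 FPKM in the other APC cKOs (ratio 0.944). In the latter group the whole range was below 1 FPKM. Dvl3 in APC/β-cat cKO replicate 4 (6.15 FPKM against 9.68 to 11.1 FPKM) did not pass.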

How the results depend on the processing

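Of 876 log2 changes recomputed for the 10 genes (34 results), 0 passed an adjusted p of 0.05, and the lowest adjusted p was 0.0802 (Prickle1 in the APC/β-cat cKOs, without APC/β-cat cKO replicate 1). Signs changed 22 times, all in results without a call. With the difference of long and short transcripts as a covariate, Dvl3 went to 0.073 for APC cKO, 0.010 for β-cat cOE and 0.053 for APC/β-cat cKO against control, Celsr3 to 0.051, 0.044 and 0.099, Prickle2 to 0.009 for β-cat cOE, and Dvl2 and Celsr2 to -0.066 and 0.116 for APC/β-cat cKO. Quantile scaling turned Vangl1 for APC cKO to -0.027. With each library left out in turn, sign changes gave these ranges: for APC cKO, -0.065 to 0.006 for Dvl3 and -0.066 to 0.037 for Celsr3. For β-cat cOE they were -0.033 to 0.068 for Dvl1, -0.119 to 0.029 for Prickle2 and -0.041 to 0.054 for Celsr3. For APC/β-cat cKO they were -0.011 to 0.212 for Vangl2, -0.008 to 0.163 for Celsr1 and -0.186 to 0.057 for Celsr3. The median over the 10 genes ranged from -0.024 to 0.055 for APC cKO, -0.034 to 0.061 for β-cat cOE and -0.194 to 0.015 for APC/β-cat cKO. Of the unadjusted calls against control, Prickle1 and Prickle2 in the APC cKOs, Celsr1 in the APC cKOs and Prickle1 in the APC/β-cat cKOs stayed under 0.05 in all fits that held them. Celsr1 and Vangl1 are below a mean of 2 FPKM and have no value under that filter.

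The number of the 10 genes under an unadjusted p of 0.05 was 2 in the β-cat cOEs with sex as a covariate and 1 in the APC/β-cat cKOs with the length covariate. Between APC cKO and APC/β-cat cKO, 0 were counted with the stricter filter and 2 with no trend. From APC/β-cat cKO to β-cat cOE, 1 was counted with the stricter filter, no trend, sex, the title-number block, the length covariate or only the 2 groups. For APC cKO against β-cat cOE it was 0 with sex. With libraries left out it was 0 to 1, 1 to 3, 0 to 2, 0 to 2 and 0 to 1 in these 5 comparisons. For APC cKO against control, Vangl2 was under an unadjusted p of 0.05 in 19 of 26 alternative fits. Dvl1 and Dvl2, above it in the main fit, were under it in 2 of 26 each.

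The number of all genes called at an adjusted p of 0.05, as reported 6, 2, 29, 30, 32, 6 and 35 in the order given next, varied more. With the number in the sample title as a block it was 3, 1 and 14 in the APC cKOs, β-cat cOEs and the APC/β-cat cKOs against control, 15, 12 and 1 for APC cKO against APC/β-cat cKO, β-cat cOE against APC/β-cat cKO and APC cKO against β-cat cOE, and 16 for any difference. What the title numbers mark is not known, and the block added no call of the 10 genes. With only the 2 groups it was 2, 1, 13, 6 and 10 (not changed by over 1.5 times for β-cat cOE against APC/β-cat cKO), with sex 1 in the β-cat cOEs, 49 in the APC/β-cat cKOs and 14 for APC cKO against APC/β-cat cKO, with no trend 16 for the last, and with the stricter filter 1 for APC cKO against β-cat cOE. The order of columns as a block gave 1 in the β-cat cOEs and 18 for β-cat cOE against APC/β-cat cKO, and the length covariate 8 in the APC/β-cat cKOs and 16 for β-cat cOE against APC/β-cat cKO. Leaving out libraries gave 3 to 43, 1 to 3, 10 to 56, 10 to 32, 9 to 54, 1 to 23 and 19 to 96 in the 7 tests, in the order of the block, the high ends mostly without control replicate 1, a female. The cause was not tested.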
